A study of Mus musculus with 9 samples.

Results

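The Wnt pathway genes described here were 39 named ligands, secretion factors, receptors, modulators and downstream components. Every probe set carrying one of these gene symbols was taken, which gave 94 of the 45101 probe sets for 38 of the 39 genes. Tcf7 had no probe set of its own under this rule and was not analysed here. RNA was hybridised to 9 Affymetrix mouse arrays, 3 in each of 3 groups. All groups came from 1 mouse embryonic stem (ES) line, Ainv15, carrying a V5-tagged Cdx2 construct that doxycycline switches on. The Cdx2 and FGF cultures were day 5 embryoid bodies patterned from day 2 with 0.5 µM hedgehog agonist and 1 µM retinoic acid, then given 2 µg/ml doxycycline for 6 to 8 hours on day 3, and basic FGF at 100 ng/ml. The motor neuron cultures were day 5 embryoid bodies that received the same retinoic acid and hedgehog agonist without doxycycline or FGF. The ES cells were taken at day 0 and had been grown on feeder fibroblasts arrested with mitomycin C. The growth protocol also gives 100 nM retinoic acid and 100 nM hedgehog agonist alongside FGF after a wash, and does not say which cultures received these. Doxycycline, Cdx2 and FGF came together, so what each one did cannot be told apart.

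Wnt ligands are lipid-modified by the enzyme Porcn, carried out of the cell by Wls, and bind Frizzled (Fzd) receptors with the co-receptors Lrp5 or Lrp6. In the canonical branch this stops a complex of Axin, Apc and Gsk3 from marking beta-catenin (Ctnnb1) for destruction, and beta-catenin then activates genes together with factors of the TCF/LEF family. In the embryo, Wnt signals act with FGF in the tail bud, where the caudal body and spinal cord grow, and Cdx genes are among the genes they regulate there. Other branches, driven by ligands such as Wnt5a, orient cells without beta-catenin.

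Values are log2 expression levels, and the threshold for a measured level was 4. Of the 94 member probe sets, 70 lay over 4 on at least 1 array, 66 on at least 3 arrays and 35 on all 9. All 3 arrays of a group exceeded 4 for 64 probe sets in Cdx2 and FGF cultures, 56 in motor neuron cultures and 40 in ES cells. On single arrays the number over 4 was 64 to 66 in Cdx2 and FGF cultures, 57 or 58 in motor neuron cultures and 43 to 50 in ES cells, so the groups did not overlap. Over all probe sets the share over 4 was 43.7 to 43.8%, 43.5 to 43.9% and 44.3 to 45% in these groups, in which ES cells were slightly highest. Each gene was represented by its probe set with the highest mean, and 32 of the 39 genes passed the filter of over 4 on at least 3 arrays. Wnt3a, Dkk1, Sfrp5, Frzb and Rspo1 stayed under 4 on all 9 arrays in every probe set, and Sp5 exceeded 4 on 1 array. Wnt7a passed only through motor neuron arrays, and Fzd10 and Rspo3 only with the Cdx2 and FGF arrays, so these 3 had to differ between groups. Differences are log2 differences with the standard error (SE) of limma's fit. A call needs an adjusted p under 0.05 over all 10912 genes tested and a log2 difference of at least 1 in size. A fold is given as "at least" where an array of the dimmer group lay under 4, with such values raised to 4.

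Cdx2 read 8.27, 8.99 and 8.59 in Cdx2 and FGF cultures, 2.17, 2.17 and 2.24 in motor neuron cultures and 2.17 on each ES array, as the labels require. Control probe sets for RNA preparation set the ES arrays apart, with Gapdh as an exception. The level of 18S rRNA averaged 15.38, 15.48 and 6.35 in Cdx2 and FGF, motor neuron and ES arrays. In the same order, the 3′ minus 5′ difference averaged -0.04, -0.04 and 2.07 for Actb and -1.62, -1.5 and 6.25 for Tfrc. For each of these controls the exact two-sided permutation p of motor neuron against ES arrays was 0.1, the smallest that 3 against 3 can give. Their part in the differences from ES cells was not tested. Pluripotency genes were over 4 in ES cells alone: all 8 lay under 4 on every array of both day 5 groups. The mean level of 8 motor neuron genes was 4.27 to 4.34 in Cdx2 and FGF cultures and 6.98 to 8.06 in motor neuron cultures. Chat and Slc5a7, markers of mature cholinergic neurons, lay under 4 in both day 5 groups, and Isl2 and Prph also in Cdx2 and FGF cultures. Slc18a3, another cholinergic gene of this list, read 11.29, 11.37 and 10.65 on motor neuron arrays. In Cdx2 and FGF cultures it read 4.12, 4.01 and 3.67. In bulk RNA, fewer cells of a type and less RNA per cell cannot be told apart.

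Cdx2 and FGF cultures were first set against motor neuron cultures, which asks how the levels of pathway genes differed between the day 5 groups. Higher were the receptors Fzd10, Fzd4, Fzd6 and Fzd1, the co-receptor Lrp5, the ligand Wnt9a, the amplifier Rspo3, the secreted Dkk3 and the nuclear factors Lef1 and Tcf7l1. Lower were the ligand Wnt7a, the receptor Fzd9, the secreted inhibitor Sfrp1 and the transcription factor Sp8. Thus 10 of the 32 tested members were called higher and 4 lower, 43.8% in all, beside 19.8% of all genes tested, of which 11.2% were higher and 8.61% lower. The member calls include Wnt7a, Fzd10 and Rspo3, which had to differ between groups by the filter. The median log2 difference was 0.42 over the members and 0.04 over all genes tested. Of these 14 calls, 11 held under every setting that gave the gene a single value, each array left out included, and Lef1, Fzd1 and Lrp5 did not. For Fzd6, the mean of its probe sets gave no value.

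**Figure D1:**
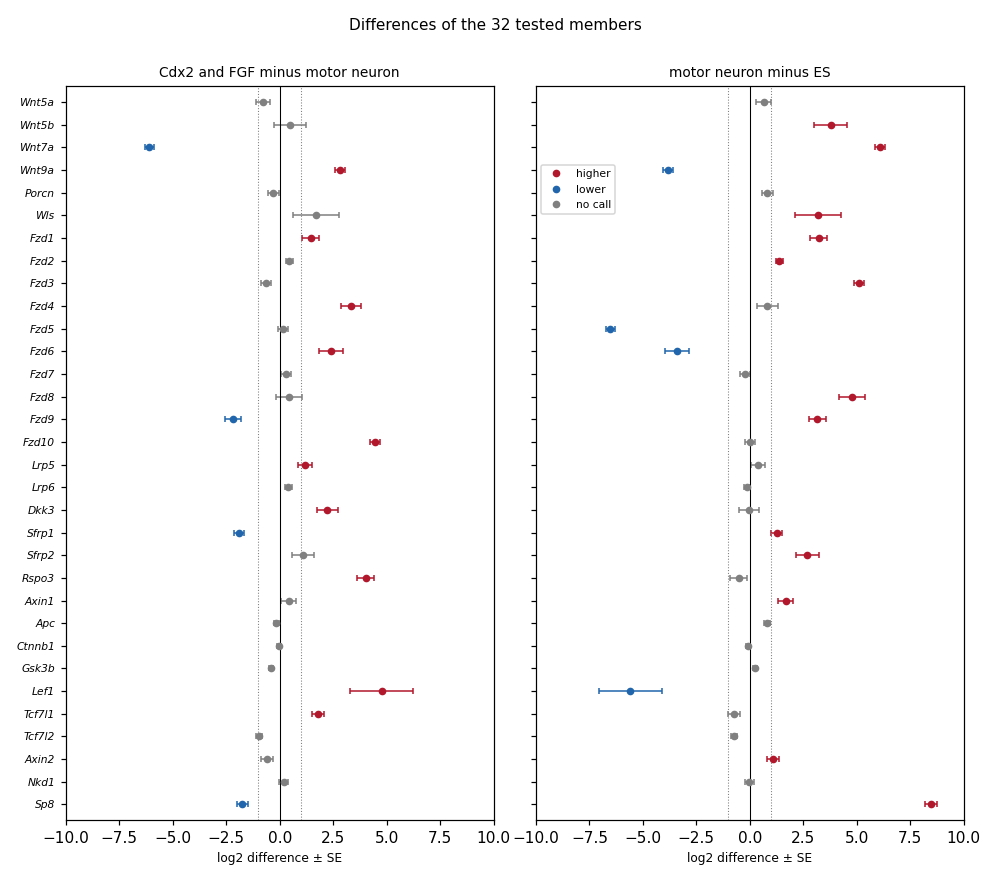
Log2 difference ± SE (x axis) of the 32 tested members (y axis), for Cdx2 and FGF minus motor neuron cultures on the left and motor neuron cultures minus ES cells on the right, with dotted lines at ±1 and called members in colour. Wnt7a stands at -6.09 on the left and 6.09 on the right, while Lef1, Wnt9a and Fzd6 stand on opposite sides of 0 in the other sense. Both panels use the motor neuron arrays.

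Motor neuron cultures were then set against ES cells, which asks what changed over differentiation. Higher were Sp8, the ligands Wnt7a and Wnt5b, the transporter Wls, the receptors Fzd1, Fzd2, Fzd3, Fzd8 and Fzd9, the inhibitors Sfrp1 and Sfrp2, and the scaffolds Axin1 and Axin2. Lower were Fzd5, Fzd6, Wnt9a and Lef1. Of the 32 tested members 13 were called higher and 4 lower, 53.1% in all, against 56.6% of all genes tested (25.9% higher and 30.7% lower). Wnt7a, among the 13, had to differ between groups by the filter. The share of members called was thus close to that of all genes, and the median difference was 0.72 over the members against -0.08 over all genes. The 2 comparisons share the motor neuron arrays, so opposite signs for a member are not independent of each other.

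Cdx2 and FGF cultures against ES cells gave 15 members higher and 3 lower, 56.2% of the 32, where 52.6% of all genes tested were called, 25.4% higher and 27.2% lower. Fzd10 and Rspo3, among the 15, had to differ between groups by the filter. The median difference was 0.81 over the members and 0 over all genes. With values under 4 raised to 4, the leading higher members were Sp8, Fzd1, Fzd3, Wls and Fzd8, with log2 differences of 5.27, 4.68, 4.48, 4.44 and 4.17. The fitted difference of Wls was 4.88, and 3.27 without ES replicate 1. Fzd5 was the lowest, at -6.37 (SE 0.23, adjusted p = 1.9e-08), followed by Tcf7l2 at -1.70 and Wnt9a at -1.02. Wnt9a fell under the size limit with median centring (-0.92), with the mean of its probe sets (-0.51), and without ES replicate 1 (about -1) or Cdx2 and FGF replicate 1 (-0.96) or 2 (-0.90).

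Among ligands, Wnt7a, which in mouse acts in limb patterning and synapse formation, was measured in 1 group alone. It read 2.21 on each Cdx2 and FGF array, 8.03, 8.69 and 8.18 on motor neuron arrays, and 2.21 on each ES array. Every motor neuron array was high and every other array lay at the probe set's lowest value. The other Wnt7a probe sets read 2.17 on all 9 arrays and were not tested. By its brightest probe set Wnt7a was at least 19.7-fold lower in Cdx2 and FGF than in motor neuron cultures (log2 difference -6.09, SE 0.22, adjusted p = 1.28e-07) and at least 19.7-fold higher in motor neuron cultures than in ES cells (6.09, adjusted p = 1.71e-08). Wnt9a, known in mouse for its part in joints and cartilage, had the opposite order. It read 5.91, 5.79 and 6.40 in Cdx2 and FGF cultures, 3.10, 3.45 and 3.10 on motor neuron arrays, and 7.10, 7.08 and 6.98 on ES arrays. The 3 groups did not overlap, and motor neuron cultures were lowest. Wnt9a was at least 4.1-fold higher in Cdx2 and FGF than in motor neuron cultures (2.82, SE 0.24, adjusted p = 2.43e-05), and in motor neuron cultures it was at least 8.3-fold lower than in ES cells (-3.84, adjusted p = 5.29e-07).

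Wnt5b, a close relative of Wnt5a, read 8.91, 9.43 and 9.54 in Cdx2 and FGF cultures, 8.58, 8.95 and 8.91 on motor neuron arrays, and 5.88, 2.81 and 6.40 on ES arrays. Both day 5 groups lay above every ES array and overlapped each other. It was at least 10.4-fold higher in motor neuron cultures than in ES cells (3.78, SE 0.77, adjusted p = 0.00152). That difference was 2.67 without ES replicate 2 and 4.46 without ES replicate 3. Wnt5a, the main ligand of the branch that works without beta-catenin, read 7.79, 7.69 and 7.36 in Cdx2 and FGF cultures, 7.79, 9.15 and 8.29 on motor neuron arrays, and 7.79, 7.79 and 7.74 on ES arrays. In this brightest probe set the groups overlapped, and neither comparison passed the test: the difference was -0.79 (adjusted p = 0.0963) for Cdx2 and FGF minus motor neuron cultures and 0.64 (adjusted p = 0.106) for motor neuron cultures minus ES cells. The first of these became a call at an adjusted p of 0.0327 without motor neuron replicate 1. In its other tested probe sets every motor neuron array lay above all other arrays. Each gave -0.87 between the day 5 groups, without a call. The dimmer, over 4 on motor neuron arrays alone and so bound to differ, was called higher there than in ES cells (1.80, adjusted p = 0.000129). The brighter gave 2.90 (adjusted p = 0.0574). Wnt3a, the ligand of the tail bud, read at most 2.83 on any array. None of the other 14 Wnt ligands listed passed the filter. Of those, Wnt3 read 6.99 on ES replicate 3 and 2.17 on the other 8 arrays, and Wnt4 read 4.09, 4.12 and 3.67 in Cdx2 and FGF cultures.

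Porcn, the acyltransferase that lipidates Wnts, read 9.03 to 9.26 in Cdx2 and FGF cultures, 9.21 to 9.67 in motor neuron cultures and 8.08 to 9.16 in ES cells. It was called in neither comparison. Wls, the carrier that brings Wnts to the cell surface, read 10.76, 10.90 and 10.69 in Cdx2 and FGF cultures, 9.23, 9.23 and 8.84 on motor neuron arrays, and 2.67, 7.65 and 7.38 on ES arrays. The groups did not overlap, and ES replicate 1 lay far below the other 2 ES arrays. The difference between Cdx2 and FGF and motor neuron cultures was 1.68 (SE 1.08, adjusted p = 0.283), with an SE that takes in the ES spread. On the 6 day 5 arrays alone the adjusted p was 0.00043, and without ES replicate 1 it was 0.000183. Against ES cells, Wls was at least 6.75-fold higher in motor neuron cultures (3.20, adjusted p = 0.0225), a difference that was 1.58, 4.07 and 3.94 without ES replicate 1, 2 and 3. The call was lost on the 6 motor neuron and ES arrays alone (adjusted p = 0.0648) and without motor neuron replicate 1 (0.0629) or 2 (0.0594). The mean level of 11 fibroblast genes was 3.79 to 3.92 in Cdx2 and FGF cultures, 2.32 to 2.35 in motor neuron cultures, and 4.05, 6.71 and 6.61 on ES replicates 1, 2 and 3. So ES replicate 1 was low in both, and the part of feeder cells in the Wls level was not tested.

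**Figure D2:**
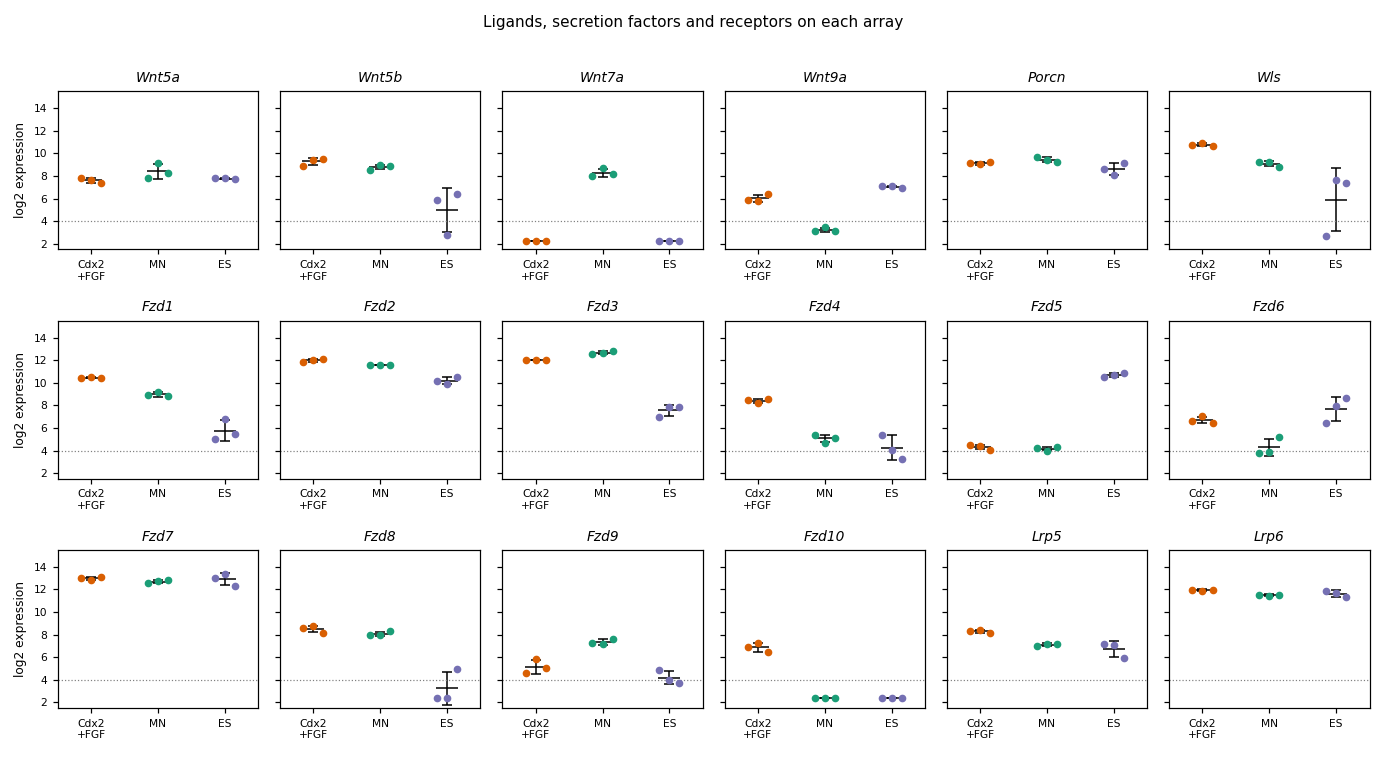
Log2 expression (y axis, dotted line at 4) of the ligands, secretion factors and receptors that were tested, with 1 point per array and the mean ± SD of the 3 arrays in Cdx2 and FGF cultures, motor neuron (MN) cultures and ES cells. Wnt7a is above 4 in motor neuron cultures alone and Fzd10 in Cdx2 and FGF cultures alone, and Fzd5 lies at 10.55 or above in ES cells and at 4.46 or below at day 5.

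All 10 Frizzled receptors were tested. In Cdx2 and FGF against motor neuron cultures 4 were called higher and 1 lower, 50% beside 19.8% of all genes tested. Fzd10 is among the 4 and had to differ between groups, since it passed the filter only with the Cdx2 and FGF arrays. Motor neuron cultures against ES cells gave 5 higher and 2 lower, 70% beside 56.6% of all genes. Fzd10 read 6.88, 7.30 and 6.47 in Cdx2 and FGF cultures and 2.42 on each of the 6 other arrays. Only the Cdx2 and FGF arrays were above background. It was at least 7.36-fold higher there than in motor neuron cultures (4.46, SE 0.24, adjusted p = 1.17e-06). Fzd4, which is also the receptor of the non-Wnt ligand Norrin, read 8.43, 8.21 and 8.56 in Cdx2 and FGF cultures, 5.36, 4.70 and 5.15 on motor neuron arrays, and 5.41, 4.07 and 3.25 on ES arrays. The Cdx2 and FGF arrays lay above all others, and the motor neuron and ES arrays overlapped. Its rise over motor neuron cultures was 10.1-fold (3.33, SE 0.48, adjusted p = 0.000676), and all 3 of its tested probe sets were called higher, at 3.33 to 3.77.

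Fzd6, which orients hairs in mouse skin, read 6.58, 7.02 and 6.48 in Cdx2 and FGF cultures, 3.75, 3.90 and 5.17 on motor neuron arrays, and 6.48, 7.97 and 8.61 on ES arrays. Motor neuron cultures were lowest, with no overlap. Fzd6 was at least 4.93-fold higher in Cdx2 and FGF than in motor neuron cultures (2.42, SE 0.56, adjusted p = 0.00902), and at least 9.83-fold lower in motor neuron cultures than in ES cells (-3.41, adjusted p = 0.000353; -4.02 without ES replicate 1). Fzd1 read 10.38, 10.47 and 10.46 in Cdx2 and FGF cultures, 8.88, 9.20 and 8.83 on motor neuron arrays, and 5.04, 6.80 and 5.42 on ES arrays. Its 3 groups were fully separate, with Cdx2 and FGF cultures highest. Fzd1 was 2.76-fold higher than in motor neuron cultures (1.46, SE 0.40, adjusted p = 0.0199), and 9.3-fold higher in motor neuron cultures than in ES cells (3.22, adjusted p = 5.41e-05). The first call was lost, at adjusted p of 0.0587 to 0.0706, without motor neuron replicate 1 or 3 or without any 1 Cdx2 and FGF array, and was kept on the 6 day 5 arrays alone (adjusted p = 0.000433).

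Fzd9 went the other way. It read 4.62, 5.81 and 5.02 in Cdx2 and FGF cultures, 7.25, 7.14 and 7.62 on motor neuron arrays, and 4.83, 4.01 and 3.70 on ES arrays. Motor neuron cultures were above both other groups, which overlapped. Fzd9 was 4.56-fold lower in Cdx2 and FGF than in motor neuron cultures (-2.19, SE 0.39, adjusted p = 0.00216), and at least 8.34-fold higher in motor neuron cultures than in ES cells (3.16, adjusted p = 4.89e-05).

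Fzd3, which in mouse guides axons and orients cells, and Fzd5 marked the step from ES cells to day 5. Fzd3 read 12.03 on each Cdx2 and FGF array, 12.54, 12.67 and 12.79 on motor neuron arrays, and 6.96, 7.85 and 7.84 on ES arrays. All 6 day 5 arrays were high, and the motor neuron level was 34.7-fold that of ES cells (5.12, SE 0.23, adjusted p = 4.88e-08). All 6 Fzd3 probe sets were called higher there, at 5.12 to 8.46. Fzd5 read 4.46, 4.41 and 4.08 in Cdx2 and FGF cultures, 4.19 and 4.34 on motor neuron replicates 1 and 3 and just under 4 on replicate 2, and 10.55, 10.69 and 10.84 in ES cells. The day 5 groups overlapped and lay near the threshold. Fzd5 was at least 91.6-fold lower in motor neuron cultures than in ES cells (-6.52, SE 0.23, adjusted p = 1.27e-08). Between the day 5 groups the differences were -0.64 for Fzd3 (adjusted p = 0.0579) and 0.14 for Fzd5 (adjusted p = 0.704).

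Fzd8 read 8.55, 8.72 and 8.17 in Cdx2 and FGF cultures, 7.93, 7.93 and 8.30 on motor neuron arrays, and 2.41, 2.43 and 4.94 on ES arrays. The day 5 groups overlapped above every ES array, and Fzd8 was at least 13.3-fold higher in motor neuron cultures than in ES cells (4.79, adjusted p = 5.84e-05), with a difference of 5.63 without ES replicate 3. Fzd2 read 11.87 to 12.09 in Cdx2 and FGF cultures, 11.54 to 11.55 in motor neuron cultures and 9.88 to 10.51 in ES cells. It was 2.58-fold higher in motor neuron cultures than in ES cells, and its difference between day 5 groups was 0.44 (adjusted p = 0.0613). Its other 2 probe sets, under 4 on every ES array, rose by at least 52.3-fold and 55.9-fold in motor neuron cultures over ES cells. Fzd7 was over 12 on all 9 arrays in its brightest probe set, which was called in neither comparison. Its other probe set read 2.53 on each ES array and was called higher in both. That probe set gave 1.11 (adjusted p = 0.00719) for Cdx2 and FGF minus motor neuron cultures. For motor neuron cultures minus ES cells it gave 3.92 (adjusted p = 4.78e-07). Of the co-receptors, Lrp5 read 8.28, 8.40 and 8.18 in Cdx2 and FGF cultures, 6.96, 7.18 and 7.18 on motor neuron arrays, and 7.18, 7.05 and 5.92 on ES arrays. The Cdx2 and FGF arrays were highest and the other groups overlapped. Lrp5 was 2.27-fold higher in Cdx2 and FGF than in motor neuron cultures (1.18, SE 0.33, adjusted p = 0.0219), a call that was lost without any 1 day 5 array (adjusted p = 0.0534 to 0.0791) and kept on the 6 day 5 arrays alone (adjusted p = 0.00148). Lrp6 differed by 0.41 between these groups (adjusted p = 0.062).

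Secreted modulators moved in both directions. Rspo3, an R-spondin that raises Wnt signalling by keeping receptors at the cell surface, read 6.44, 6.82 and 6.27 in Cdx2 and FGF cultures, 2.51, 2.46 and 2.51 on motor neuron arrays, and 2.51, 4.06 and 2.51 on ES arrays. The Cdx2 and FGF arrays lay above all others. Rspo3 was at least 5.69-fold higher in Cdx2 and FGF than in motor neuron cultures (4.02, SE 0.40, adjusted p = 6.19e-05). Dkk3, a divergent member of the Dickkopf family, read 8.28, 8.21 and 8.00 in Cdx2 and FGF cultures, 6.53, 6.53 and 4.73 on motor neuron arrays, and 5.88, 6.53 and 5.49 on ES arrays. Motor neuron and ES arrays overlapped under the Cdx2 and FGF arrays. Dkk3 was 4.69-fold higher than in motor neuron cultures (2.23, SE 0.49, adjusted p = 0.007), and without motor neuron replicate 3 the difference was 1.63.

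Sfrp1 and Sfrp2 are secreted Frizzled-related proteins that bind Wnts. Sfrp1 read 10.28, 9.83 and 9.92 in Cdx2 and FGF cultures, 11.54, 12.20 and 11.95 on motor neuron arrays, and 10.62, 11.04 and 10.27 on ES arrays. Motor neuron cultures were highest, with no overlap. Sfrp1 was 3.69-fold lower in Cdx2 and FGF than in motor neuron cultures (-1.89, SE 0.24, adjusted p = 0.000286), and all 4 of its tested probe sets were lower, at -2.46 to -1.66. Another Sfrp1 probe set read 2.17 on every day 5 array and was not tested. It was 2.38-fold higher in motor neuron cultures than in ES cells (1.25, adjusted p = 0.00094). Sfrp2 read 13.54, 13.35 and 13.39 in Cdx2 and FGF cultures, 12.33 on each motor neuron array, and 8.44, 9.39 and 11.09 in ES cells. The groups were separate and ordered Cdx2 and FGF, motor neuron, ES from high to low. Sfrp2 was 6.45-fold higher in motor neuron cultures than in ES cells (2.69, adjusted p = 0.00104), and the difference was 2.09 without ES replicate 1 and 3.41 without ES replicate 3. Its difference between day 5 groups, 1.10 (SE 0.52), did not pass the test in the fit of all 9 arrays (adjusted p = 0.143). On the 6 day 5 arrays it did (adjusted p = 9.15e-05), as it did without ES replicate 1 (0.0446) or ES replicate 3 (0.00427).

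In the destruction complex and its target beta-catenin, 0 of 4 members were called by limma between the day 5 groups, and 1 had an unadjusted p under 0.05. Of all genes tested 19.8% were called, so 4 members are too few to set the complex apart. The differences in their brightest probe sets were 0.43 for Axin1, -0.15 for Apc, -0.04 for Ctnnb1 and -0.40 for Gsk3b. Of these only Gsk3b, at -0.40, had an adjusted p under the threshold (0.0149), and its size was too small for a call. Another probe set was called lower for Apc (-1.05) and for Gsk3b (-1.45). The brightest Ctnnb1 probe set read between 14.34 and 14.68 on all 9 arrays. Axin1 was 3.19-fold higher in motor neuron cultures than in ES cells (1.67, SE 0.35, adjusted p = 0.00169). The other 3 were not called there in their brightest probe sets, with differences of 0.80 for Apc, -0.08 for Ctnnb1 and 0.25 for Gsk3b. All their other tested probe sets were called higher there, at up to 6.25 for Apc, 2.81 for Ctnnb1 and 2.99 for Gsk3b.

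Of the nuclear factors, Lef1, itself a textbook Wnt target, read 6.85, 7.99 and 8.10 in Cdx2 and FGF cultures, 2.89 on each motor neuron array, and 10.80, 4.16 and 10.46 in ES cells. Motor neuron arrays were all at the bottom, and ES replicate 2 lay far from the other 2 ES arrays. Lef1 was at least 12.5-fold higher in Cdx2 and FGF than in motor neuron cultures (4.76, SE 1.46, adjusted p = 0.0329). The wide SE takes in the ES arrays. The call was lost without any 1 day 5 array (adjusted p = 0.0641 to 0.1), and on the 6 day 5 arrays alone the adjusted p was 0.000326. Lef1 was at least 22.2-fold lower in motor neuron cultures than in ES cells (-5.59, adjusted p = 0.00628), and the difference was -4.42, -7.74 and -4.59 without ES replicate 1, 2 and 3.

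Tcf7l1, which mostly represses Wnt targets in mouse ES cells, read 11.16, 11.02 and 11.34 in Cdx2 and FGF cultures, 8.99, 9.53 and 9.68 on motor neuron arrays, and 10.10, 9.65 and 10.74 on ES arrays. Cdx2 and FGF arrays were highest. Tcf7l1 was 3.42-fold higher in Cdx2 and FGF than in motor neuron cultures (1.77, SE 0.28, adjusted p = 0.00116), and its second probe set gave 1.74. Tcf7l2 read 9.69, 9.72 and 9.93 in Cdx2 and FGF cultures, 10.73, 10.64 and 10.88 on motor neuron arrays, and 11.61, 11.37 and 11.47 on ES arrays. The groups were separate, but the difference between day 5 groups, -0.97 (adjusted p = 0.000513), was just too small for a call. It became one under quantile normalization (-1.05), median centring (-1.03), and without motor neuron replicate 2 (-1.02) or Cdx2 and FGF replicate 3 (-1.04).

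Among genes that Wnt signals switch on or that act beside them, Axin2, a feedback inhibitor and common readout of the canonical branch, read 8.63, 8.82 and 8.68 in Cdx2 and FGF cultures, 9.25, 9.16 and 9.51 on motor neuron arrays, and 7.80, 7.96 and 8.92 on ES arrays. The day 5 groups did not overlap, but their difference of -0.60 (SE 0.29) did not pass the test (adjusted p = 0.152). Axin2 was 2.12-fold higher in motor neuron cultures than in ES cells (1.08, adjusted p = 0.00703), close to the size limit. The difference fell under that limit at 0.87, 0.95 and 0.98 without ES replicate 1, ES replicate 2 or motor neuron replicate 3, and at 0.91 under quantile normalization. A second Axin2 probe set, under 4 on every ES array, rose by at least 10.3-fold there (4.11, adjusted p = 3.15e-07). Between the day 5 groups that probe set gave -0.75 (adjusted p = 0.0399), too small for a call. Sp8, a zinc finger factor, read 9.52, 9.25 and 9.04 in Cdx2 and FGF cultures, 10.96, 10.97 and 11.10 on motor neuron arrays, and 2.38, 2.17 and 3.06 on ES arrays. All ES arrays were under 4 and the day 5 groups were separate. Sp8 was 3.34-fold lower in Cdx2 and FGF than in motor neuron cultures (-1.74, SE 0.27, adjusted p = 0.0011) and at least 129-fold higher in motor neuron cultures than in ES cells (8.47, adjusted p = 8.33e-09). Its relative Sp5, a direct Wnt target, read 7.91 on ES replicate 3 and 2.17 on the other 8 arrays, and was not tested. Nkd1, a feedback inhibitor, stayed between 4.60 and 4.93 in its brightest probe set and was not called.

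**Figure D3:**
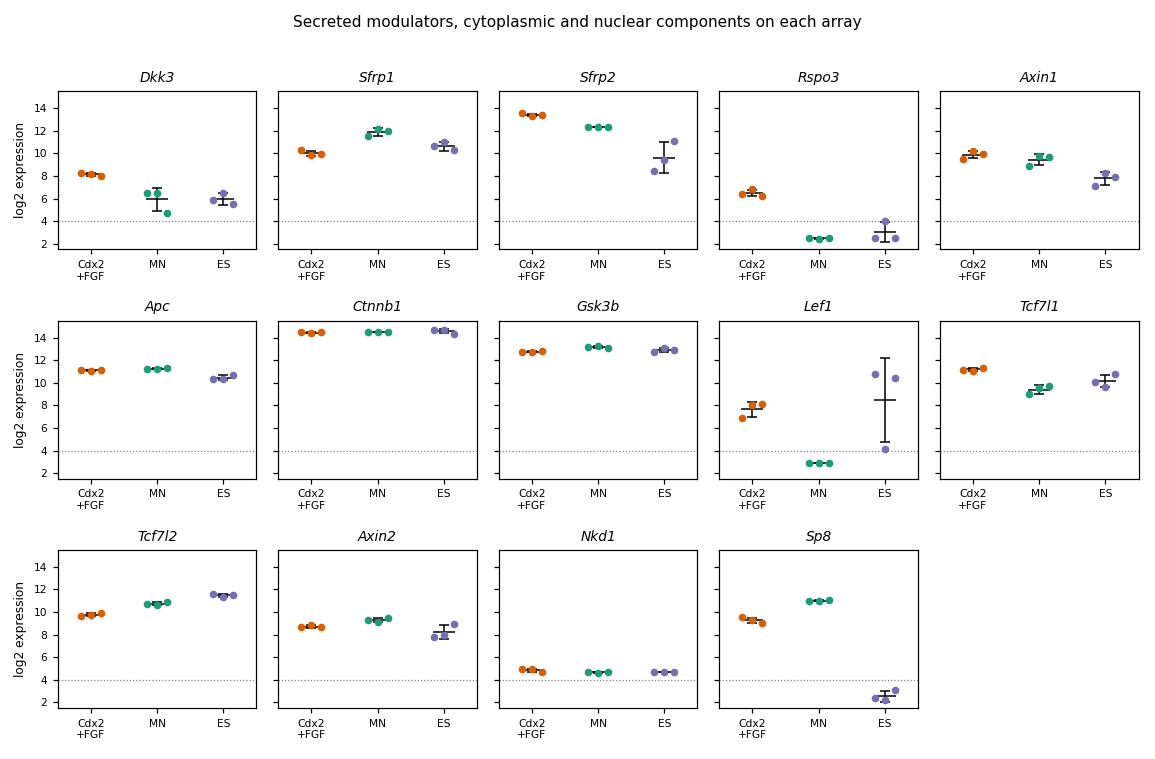
Log2 expression (y axis, dotted line at 4) of the tested secreted modulators, cytoplasmic components, nuclear factors and targets, with 1 point per array and the mean ± SD of the 3 arrays in Cdx2 and FGF cultures, motor neuron (MN) cultures and ES cells. Rspo3 and Lef1 are low on every motor neuron array, and the ES arrays of Lef1 lie at 10.80, 4.16 and 10.46. Ctnnb1 is level across the groups in the probe set shown, its brightest.

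Start-site windows are shown for the ligand and the receptor that were above 4 in 1 group alone, Wnt7a and Fzd10, and for the textbook Wnt targets Lef1 and Sp5. They come from RefSeq (GRCm38.p6), run from 250 bases before to 50 after a start site, and are written 5′ to 3′ on the gene's strand. Capitals mark matches, on either strand, to CTTTGA, the core that TCF/LEF factors bind, and to TTTATNG, the core for Cdx2. The matches in these windows do not overlap each other. Lef1 has 4 windows in the table, of which the first and the last are given.
Wnt7a, chr6:91411304-91411603, minus strand: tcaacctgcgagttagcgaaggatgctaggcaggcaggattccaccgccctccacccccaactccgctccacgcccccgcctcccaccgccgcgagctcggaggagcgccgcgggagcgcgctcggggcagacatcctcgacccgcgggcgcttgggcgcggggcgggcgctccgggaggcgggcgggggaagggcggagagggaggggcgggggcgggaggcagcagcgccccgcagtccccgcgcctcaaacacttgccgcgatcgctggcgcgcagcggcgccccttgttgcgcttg
Fzd10, chr5:128600856-128601155, plus strand: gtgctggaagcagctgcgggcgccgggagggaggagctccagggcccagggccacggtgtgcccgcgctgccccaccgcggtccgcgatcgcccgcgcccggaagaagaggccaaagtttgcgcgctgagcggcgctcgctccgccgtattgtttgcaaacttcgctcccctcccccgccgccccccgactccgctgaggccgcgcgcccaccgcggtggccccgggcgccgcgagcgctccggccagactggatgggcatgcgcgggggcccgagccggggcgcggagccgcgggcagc
Lef1 first start, chr3:131110047-131110346, plus strand: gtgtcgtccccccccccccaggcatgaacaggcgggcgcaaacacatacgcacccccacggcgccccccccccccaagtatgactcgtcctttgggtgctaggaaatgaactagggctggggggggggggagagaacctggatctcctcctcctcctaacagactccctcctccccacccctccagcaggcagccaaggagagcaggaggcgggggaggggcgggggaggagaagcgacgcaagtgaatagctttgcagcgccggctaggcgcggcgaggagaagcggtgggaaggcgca
Lef1 last start, chr3:131156044-131156343, plus strand: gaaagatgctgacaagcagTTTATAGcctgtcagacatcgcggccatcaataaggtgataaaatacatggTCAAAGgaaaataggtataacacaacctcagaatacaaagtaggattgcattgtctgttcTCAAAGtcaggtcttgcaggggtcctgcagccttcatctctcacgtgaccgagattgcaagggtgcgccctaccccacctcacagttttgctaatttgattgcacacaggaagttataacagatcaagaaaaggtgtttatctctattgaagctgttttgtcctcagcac
Sp5, chr2:70474673-70474972, plus strand: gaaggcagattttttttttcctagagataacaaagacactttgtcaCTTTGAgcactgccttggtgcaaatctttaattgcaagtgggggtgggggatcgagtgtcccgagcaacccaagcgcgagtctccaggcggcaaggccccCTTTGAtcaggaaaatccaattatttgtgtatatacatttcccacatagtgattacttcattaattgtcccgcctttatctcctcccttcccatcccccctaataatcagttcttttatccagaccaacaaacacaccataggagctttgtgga

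The last Lef1 window holds 2 TCF/LEF matches and 1 Cdx2 match, and the Sp5 window holds 2 TCF/LEF matches. The Wnt7a, Fzd10 and first Lef1 windows hold none of either. Of the 39 genes, 26 were in the table, with 36 windows. The TCF/LEF letters occurred in 8 of these 36 (22.2%), against 16% of 32851 windows of all genes, and the Cdx2 letters in 7 (19.4%), against 10.9%. These are letter matches, not binding sites.

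How far the probe sets of one gene gave the same answer differed between the comparisons. For 17 members several probe sets passed the filter. The other probe sets of Wnt7a, Wnt9a, Fzd8, Fzd10 and Rspo3 read 2.17 on every array, and those of Fzd6 and Lef1 stayed under 4. The result of each of these genes rests on a single probe set. In Cdx2 and FGF against motor neuron cultures the median spread between a gene's lowest and highest difference was 0.45, and the widest was 1.26. In motor neuron cultures against ES cells it was 3.03, and the widest was 5.55. Wls, for example, ran from -2.35 to 3.20 there, Apc from 0.80 to 6.25, Fzd7 from -0.21 to 3.92, Ctnnb1 from -0.08 to 2.81 and Tcf7l2 from -0.74 to 4.64. With the probe sets of a gene averaged, Wnt5a, Fzd7, Lrp6, Apc, Ctnnb1, Gsk3b and Tcf7l2 were called higher in motor neuron cultures than in ES cells, at 1.34, 1.86, 1.25, 2.52, 1.47, 1.04 and 1.81. Over all 19554 probe sets tested, 19.9% were called between the day 5 groups (11.1% higher and 8.79% lower). The share was 59.9% in motor neuron cultures against ES cells (32.7% higher and 27.2% lower), and 56.1% in Cdx2 and FGF cultures against ES cells (32.2% higher and 23.9% lower). For 5 members some probe sets passed between the day 5 groups while the brightest did not: Wnt5b at 1.36, Fzd2 at 1.49 and 1.05 and Fzd7 at 1.11 were higher, and Apc at -1.05 and Gsk3b at -1.45 were lower. In no member did probe sets give calls in both directions between the day 5 groups or between motor neuron cultures and ES cells. Against ES cells, Cdx2 and FGF cultures gave both directions for Sfrp1 and Tcf7l2. With the mean of its probe sets in place of the brightest, Tcf7l2 changed sign there, to 1.01 (adjusted p = 0.065). The day 5 arrays read about alike in the array controls and the ES arrays did not, and the part of RNA preparation in this spread was not tested.

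**Figure D4:**
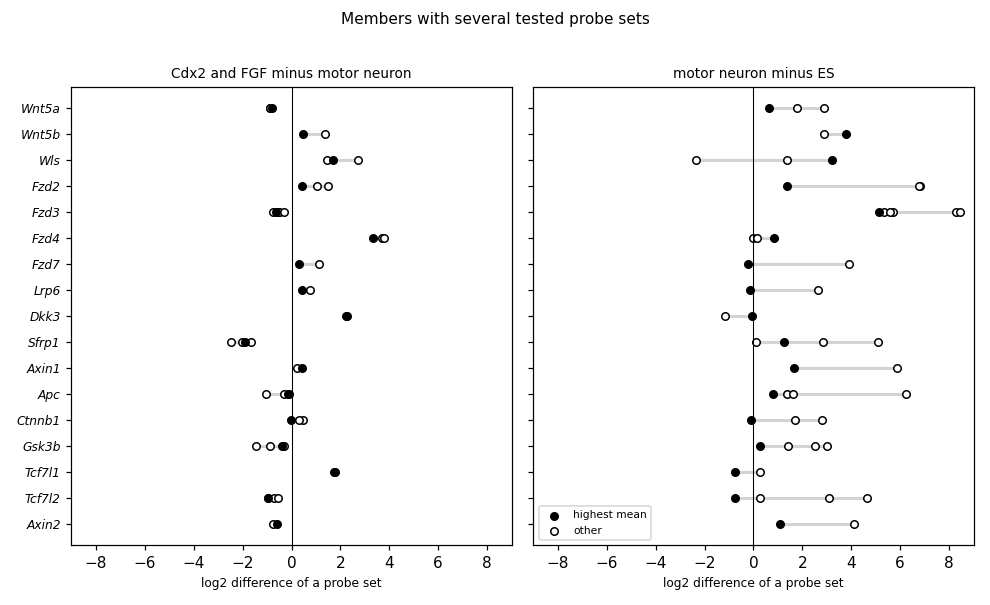
Log2 difference (x axis) of every tested probe set of the 17 members that had several (y axis), with the probe set of highest mean filled, for Cdx2 and FGF minus motor neuron cultures on the left and motor neuron cultures minus ES cells on the right. Points of one gene span at most 1.26 on the left and up to 5.55 on the right.

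A further list of 89 genes of the pathway, of which 51 were tested, gave 11 higher and 3 lower in Cdx2 and FGF against motor neuron cultures, 27.5% in all beside 19.8% of all genes tested. Their median difference was 0.05, against 0.04 over all genes. Of 10 other receptors and co-receptors tested, 5 were higher and 0 lower by limma (6 and 0 at an unadjusted p under 0.05), among them the glypicans Gpc3 (2.88, adjusted p = 0.0317) and Gpc4 (2.75, adjusted p = 0.000155), cell-surface proteoglycans, and Reck (2.30), which helps Wnt7a signal. Of 10 planar cell polarity genes, 2 were higher and 2 lower. Prickle1 was 12-fold higher (3.59, SE 0.24, adjusted p = 5.18e-06), while the atypical cadherins Celsr3 and Celsr2 were 8.21-fold and 2.54-fold lower. Draxin, an axon guidance protein that also inhibits Wnt signalling, was at least 5.7-fold lower. Draxin passed the filter only through motor neuron arrays, so it had to differ between groups. Of 7 target genes tested, which take in some members, 3 were higher, namely Lef1, Cdx4 (at least 3.05-fold) and Myc (5.03-fold). Cdx4 passed only through Cdx2 and FGF arrays and so also had to differ. Of 16 other cytoplasmic components 1 was higher, Dact1, at 1.28, and of 10 other nuclear components limma called 0 (3 lower at an unadjusted p under 0.05).

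In motor neuron cultures against ES cells the same list gave 19 higher and 11 lower. The median was 0.24 against -0.08 over all genes. The share called was 58.8% of the 51, close to the 56.6% of all genes tested. Dvl3, a Dishevelled that relays signals from Frizzled receptors, was at least 59.6-fold higher, and the kinase Csnk1e at least 99.8-fold. The nuclear co-activator Pygo1 was at least 4.96-fold higher. Of 10 polarity genes 4 were higher and 2 lower: among them Celsr2 (13.3-fold), Vangl2 (11.5-fold) and Prickle2 (at least 12.9-fold) were higher, and Intu (11.5-fold) and Prickle1 (2.39-fold) were lower. Gpc4 was 8.73-fold lower, Reck 7.27-fold, the co-repressor Tle4 4.05-fold and the cell cycle gene Ccnd1 5.43-fold lower.

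Other cell-type markers moved with the day 5 comparison. Of 8 pan-neuronal genes 7 were lower in Cdx2 and FGF than in motor neuron cultures, and their mean level was 9.08 to 9.56 in Cdx2 and FGF cultures and 12.71 to 13.20 in motor neuron cultures. Of 8 neural progenitor genes 2 were lower, Fabp7 at -5.90 and Hes5 at -2.15, and the mean level was 9.68 to 9.93 in Cdx2 and FGF cultures and 11.22 to 11.39 in motor neuron cultures. Of 13 mesoderm and mesenchyme genes, 7 were tested and 5 were higher, and their mean level was 6.24 to 6.31 in Cdx2 and FGF cultures and 2.83 to 3.33 in motor neuron cultures. The log2 of their summed level, 14.32 to 14.39 and 7.92 to 8.09 in these groups, came in Cdx2 and FGF cultures mostly from Acta2 and Tagln, which averaged 13.37 and 12.80 there. Hand1, Kdr, Mesp1, Mesp2, Msgn1 and Tbx6 lay under 4 on all Cdx2 and FGF arrays. Meox1 and Foxf1, and the fibroblast genes Col1a2 and Col3a1, passed the filter only with the Cdx2 and FGF arrays. The endoderm gene Gata6 passed only through motor neuron arrays. These genes had to differ between groups. Of 8 endoderm genes, 5 were tested, with 2 higher (Foxa2 at 1.96 and Cldn6 at 3.13) and 2 lower, Cxcr4 at -1.94 among them, and the mean level was 5.63 to 6 in Cdx2 and FGF cultures and 5.17 to 5.79 in motor neuron cultures. Of the fibroblast genes 5 were tested and 4 were higher, Col1a2 and Col3a1 among them. The log2 of the summed level of all 11 was 9.03 to 9.35 in Cdx2 and FGF cultures. It was 5.83 to 5.88 in motor neuron cultures, where all 11 lay under 4. The part of these cell-type markers in the Wnt pathway differences was not tested.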

How the data were processed

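RNA from 9 samples was measured on Affymetrix mouse arrays. Per the labels' protocols it was amplified with a NuGEN Ovation kit, and the submitters' processing notes name GCRMA and limma, without versions. The authors deposited a log2 level for each probe set, normalized between arrays, from 2.17 to 16.12. The range of the values gave the log2 scale, and no normalization was added. For arrays, their number limits the precision.

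Gene symbols came from the platform annotation. One probe set per gene, the one with the highest mean, was kept if over 4 on at least 3 of 9 arrays. A limma 3.58.1 model of the group means (lmFit, eBayes with trend; R 4.3.3) used all 9 arrays and had 6 residual degrees of freedom, with Benjamini-Hochberg adjustment over 10912 genes. Tested on simulated data for Cdx2 and FGF minus motor neuron cultures (10602 genes), the fit recovered 93% of genes changed by 1.5 and 100% of those changed by 3 on the log2 scale. The changed genes were drawn from those with a mean level over 6, with normal noise of the same size in all groups. Members at their lowest value in a whole group, or with an outlying ES array, are thus not covered. These shares describe recovery, not false calls. The labels name no separate cultures behind replicate arrays, so the p-values reflect spread between these arrays alone, and this may be technical. The 39 members, the other gene lists and the tests were chosen with earlier results of these data known. All tested members are named. Of the other pathway genes, the named ones are among the called genes of each list with the largest differences after values under 4 were raised to 4. A total of 22 alternatives were run: other normalizations, filters, variance priors, probe set choices, a replicate block, 6 arrays alone, and each array left out.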

Additional observations from a re-analysis of the deposited data

How the results depend on the processing

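Most values kept their direction and their side of the threshold under the 22 alternatives. Changing how probe sets were combined moved the most. With every probe set tested on its own, 66 member probe sets were tested. Those called higher and lower numbered 18 and 9 in Cdx2 and FGF against motor neuron cultures (median 0.16), and other pathway probe sets 20 and 10. Over all probe sets tested 11.1% were higher and 8.79% lower there (median 0.044). In motor neuron cultures against ES cells 38 member probe sets were higher (median 1.65), and 48 and 18 of the other pathway probe sets were higher and lower (median 0.8). Over all probe sets 32.7% were higher and 27.2% lower (median 0.134). In Cdx2 and FGF cultures against ES cells 42 member probe sets were higher (median 2.11), beside 48 higher and 17 lower for the others (median 0.82). Over all probe sets 32.2% were higher and 23.9% lower (median 0.169). With probe sets of a gene averaged, the median of the members was 1.63 and of the others 0.92, with 7 others lower, in motor neuron cultures against ES cells. In Cdx2 and FGF cultures against ES cells these medians were 1.79 and 0.87, with 1 member and 3 others lower, and Tcf7l2 reversed to 1.01. Over all genes the median with averaged probe sets was 0.088 in the former comparison and 0.155 in the latter. Without the filter the median of the members in motor neuron cultures against ES cells was 0.27. These settings test other probe sets, by construction.

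With each array left out in turn, members called in Cdx2 and FGF against motor neuron cultures ranged from 7 to 12 higher and 4 to 5 lower (median 0.29 to 0.43), and other pathway genes from 7 to 12 higher and 3 to 4 lower, with 7 without Cdx2 and FGF replicate 1 or 2. In motor neuron cultures against ES cells members ranged from 12 to 14 higher and 4 to 5 lower, and in Cdx2 and FGF cultures against ES cells from 14 to 16 and 2 to 4. Without the filter, the calls of Lef1, Fzd1 and Lrp5 between day 5 groups were lost (adjusted p of 0.123, 0.0642 and 0.0542), as was Lef1 with low values raised to 4 (0.0902), and the call of Wls against ES cells (0.0844). Wls was also not called in motor neuron cultures against ES cells with the mean of its probe sets (0.55, adjusted p = 0.523), on these 6 arrays alone (0.0648), and without motor neuron replicate 1 (0.0629) or 2 (0.0594). The cause was not tested.

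Replicate numbers are shared by the groups, and deviations of same-numbered arrays correlated at -0.0257 to 0.0769. With 3 arrays in a group, such small correlations cannot decide whether the numbers pair the arrays. In Cdx2 and FGF against motor neuron cultures 5 of 6 arrays correlated best with their own number, in motor neuron cultures against ES cells 4 of 6, and in Cdx2 and FGF cultures against ES cells 1 of 6. With the replicate number as a block, Cdx2 and FGF against motor neuron cultures gave 1206 genes higher and 931 lower, against 1220 and 939 without it, and members stood at 10 and 4. Motor neuron cultures against ES cells gave under the block 13 members higher and 4 lower, and in Cdx2 and FGF cultures against ES cells 15 and 3.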

Other observations

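Some member probe sets gave the same level, within 0.01, on several arrays well above the shared lowest value. The Wnt5a probe set of highest mean read 7.79 on 4 arrays drawn from all 3 groups, a Tcf7l2 probe set read 5.06 on 5 arrays and Nkd1 read 4.70 on 6. Sfrp2 read 12.33 on all 3 motor neuron arrays and Fzd3 read 12.03 on all 3 Cdx2 and FGF arrays. The cause was not tested.

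Sp5 and Wnt3 exceeded 4 on ES replicate 3 alone, at 7.91 and 6.99, while Lef1 was low on ES replicate 2, at 4.16, and Wls on ES replicate 1, at 2.67. These levels belong to single ES arrays.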
